A study of Mus musculus with 3 samples.

Results

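The S100 proteins are small calcium-binding proteins of the EF-hand class, and this account covers the 9 S100 genes S100a1, S100a3, S100a4, S100a6, S100a8, S100a9, S100a10, S100a11 and S100a13 in purified mouse granulocyte progenitors. The 9 genes were taken by symbol from the 24421 symbols listed in each library. With them the files hold 17 S100 symbols, and the other 8 had at most a trace of signal. RNA was sequenced from 3 libraries, 1 per group, so no difference below has a replicate check and no p-value is given. The groups were NTB, granulocyte progenitors from female mice without a tumor, 4T1-TB, the same cells from female mice bearing the 4T1 tumor, and IRF8-deficient, the same cells from female mice lacking the transcription factor IRF8. NTB and 4T1-TB came from F1 semi-syngeneic mice with the H-2b/d haplotype, and IRF8-deficient from C57BL/6 mice with H-2b, so that strain and IRF8 deficiency cannot be told apart. 4T1 is a mouse mammary carcinoma line. The sources used here do not give the ages, the time with tumor, the sort markers, the IRF8 allele, or how many mice gave each library.

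Most S100 proteins form dimers that open a binding face when calcium is bound and then dock on other proteins, such as annexins and myosin. S100a8 and S100a9 encode the 2 chains of calprotectin, an abundant cytosolic complex of neutrophils that withholds zinc and manganese from microbes, assists the NADPH oxidase, and once released acts on Toll-like receptor 4 and RAGE. Both genes are switched on as granulocyte progenitors mature, and they are widely used as markers of neutrophils and of myeloid-derived suppressor cells. IRF8 directs progenitors towards monocytes and dendritic cells and restrains the granulocytic course.

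All 9 genes lie on chromosome 3 (mm10, GENCODE M21). S100a1 to S100a9 span 184688 bases, and S100a11 (93520488 to 93526287, plus strand) begins 2824766 bases beyond S100a9, followed by S100a10 (93555080 to 93564643, plus strand). S100a1 (90511034 to 90514392, minus strand), S100a13 (90514435 to 90524581), S100a3 (90560578 to 90602702) and S100a4 (90603771 to 90606045), the last 3 on the plus strand, lead up to S100a6. S100a8 (90668978 to 90670035, plus strand) and S100a9 (90692632 to 90695721, minus strand) are neighbors that point towards each other with 22596 bases between them. S100a6 (90612882 to 90624181, plus strand) stands on the other side of S100a8. The promoter windows of these 3 genes are shown because they had the largest differences of the family; each gives 250 bases before the RefSeq start and 10 from it on (GRCm38.p6), 5′ to 3′ on the gene's strand, with capitals for motif matches.
S100a8 (chr3:90668821-90669080, plus strand): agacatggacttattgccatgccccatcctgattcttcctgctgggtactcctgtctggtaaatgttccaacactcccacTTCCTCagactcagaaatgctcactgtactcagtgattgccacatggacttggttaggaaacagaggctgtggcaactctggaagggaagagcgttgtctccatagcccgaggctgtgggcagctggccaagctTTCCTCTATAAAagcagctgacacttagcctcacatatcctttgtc
S100a9 (chr3:90695712-90695971, minus strand): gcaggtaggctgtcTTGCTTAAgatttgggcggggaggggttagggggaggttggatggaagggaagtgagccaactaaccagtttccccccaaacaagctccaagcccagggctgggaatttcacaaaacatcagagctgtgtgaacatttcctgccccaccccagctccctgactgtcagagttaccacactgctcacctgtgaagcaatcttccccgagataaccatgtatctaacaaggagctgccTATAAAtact
S100a6 (chr3:90612644-90612903, plus strand): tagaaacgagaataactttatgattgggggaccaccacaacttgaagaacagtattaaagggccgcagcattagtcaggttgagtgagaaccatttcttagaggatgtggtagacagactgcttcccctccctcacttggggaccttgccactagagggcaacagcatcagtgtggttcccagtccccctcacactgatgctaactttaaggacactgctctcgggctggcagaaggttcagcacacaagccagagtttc
A set of 6 motifs was searched on both strands of the full windows of 250 bases before to 50 after the start, namely TTGCNNAA for C/EBP, GAGGAA for PU.1 and other ETS factors, GGAA and GAAA with 2 bases between them for IRF with ETS, GAAA and GAAA with 2 bases between them for the interferon response element, TTCNNNGAA for STAT, and TATAAA for the TATA box. In S100a8 the TATA box letters began 30 bases before the start, and the ETS letters, on the reverse strand, began 170 and 36 bases before it. The S100a9 window held the C/EBP letters 236 bases before the start and the TATA box letters at the annotated start itself. The S100a6 window held none of the 6 motifs. The 8 genes with a window had 11 windows in all, since S100a3 had 4. The C/EBP letters were in 1 of the 11, that of S100a9, against 10.8% of all 32851 windows. The TATA letters were in 4, 1 each of S100a3, S100a4, S100a8 and S100a9, against 13.6%, and the ETS letters in 4, 1 each of S100a3, S100a4, S100a8 and S100a11, against 28.3%. No window of a member held the IRF with ETS, interferon response or STAT letters, which were in 2.72%, 3.44% and 8.30% of all windows. A match is a run of letters, not a known site.

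The values are reads scaled to gene length and to a library size (RPKM), as deposited. The reads behind each value were recovered from the value steps and summed to 40995633, 22685574 and 35297156 in NTB, 4T1-TB and IRF8-deficient. The library sizes used in the values differ from these sums, most in IRF8-deficient, where the size was 26112000. Intervals are 95% counting intervals, exact Poisson for a level and exact binomial for a ratio, and cover counting error only. Irf8 had an RPKM of 43.8 in the control, 8.60 with the tumor and 13.7 in the deficient library; transcript from a disrupted allele can still be counted. All 13 granulocyte progenitor markers were at an RPKM of 1 or more in every library, with Mpo, the myeloperoxidase gene, at 6811, 6749 and 4012. The ribosomal RNA precursor Rn45s took 1.85%, 6.52% and 14.02% of the reads in that order, and the 20 highest genes 8.42%, 14.2% and 28.9%. Lists for dendritic, T and NK, erythroid, megakaryocyte and epithelial cells summed to an RPKM of at most 6.15 in any library. Cd3e, Gzmb, Krt5 and Krt14 were listed at 0 throughout, as were 6 hemoglobin genes. Basophil, mast cell and eosinophil markers summed to 36.5, 35.9 and 21.6, B cell markers to 16.9, 12.6 and 11.7, and stromal and endothelial markers to 12.1, 5.89 and 6.63.

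The first question was how much of each S100 transcript granulocyte progenitors carried. S100a9 and S100a8 were the top members in every library and 2 of the highest genes of all. The control library had 4255 RPKM of S100a8 (interval 4225 to 4286), the 4T1-TB library 6254 (6201 to 6306) and the IRF8-deficient library 49180 (49044 to 49316). S100a9 had 4413, 6556 and 51478. The IRF8-deficient library stood far above the others, and there S100a9 ranked 1 and S100a8 2 among all genes by RPKM, against 5 and 7 in NTB and 4 and 5 in 4T1-TB. The 2 genes together made up 96.3%, 96.6% and 99.3% of the summed RPKM of the family in NTB, 4T1-TB and IRF8-deficient. They took 0.435%, 0.576% and 3.42% of all recovered reads.

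Below calprotectin came S100a11, with an RPKM of 209.5, 284 and 447 in NTB, 4T1-TB and IRF8-deficient. It was highest in IRF8-deficient, as were S100a4, with 4.83, 6.68 and 11.6, and S100a6, with 4.88, 51.7 and 99.1 from 157, 826 and 1861 reads. S100a10 was lowest in 4T1-TB, with 24.8, 9.42 and 17.0 from 723, 136 and 289 reads. S100a1, a partner of calcium channels and pumps in muscle, and S100a13, which takes part in the release of fibroblast growth factor 1, varied least, with 62.0, 63.6 and 56.7 and with 26.2, 33.6 and 33.3. S100a6 changed place most, from rank 7 of the 9 members in NTB to rank 5 in 4T1-TB and rank 4 in IRF8-deficient. Neighbors in this order whose counting intervals overlapped were S100a13 and S100a10 in NTB (24.4 to 28.0 and 23.1 to 26.7), S100a6 and S100a4 in NTB (4.14 to 5.70 and 3.96 to 5.83), and S100a10 and S100a4 in 4T1-TB (7.90 to 11.1 and 5.24 to 8.38). S100a3, known from the hair cuticle, was listed at 0 in NTB and 4T1-TB and had 1 read in IRF8-deficient, an RPKM of 0.0538. For its count of 0 the counting interval reaches up to an RPKM of 0.116 in NTB and 0.233 in 4T1-TB. S100a3 was not compared further.

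**Figure D1:**
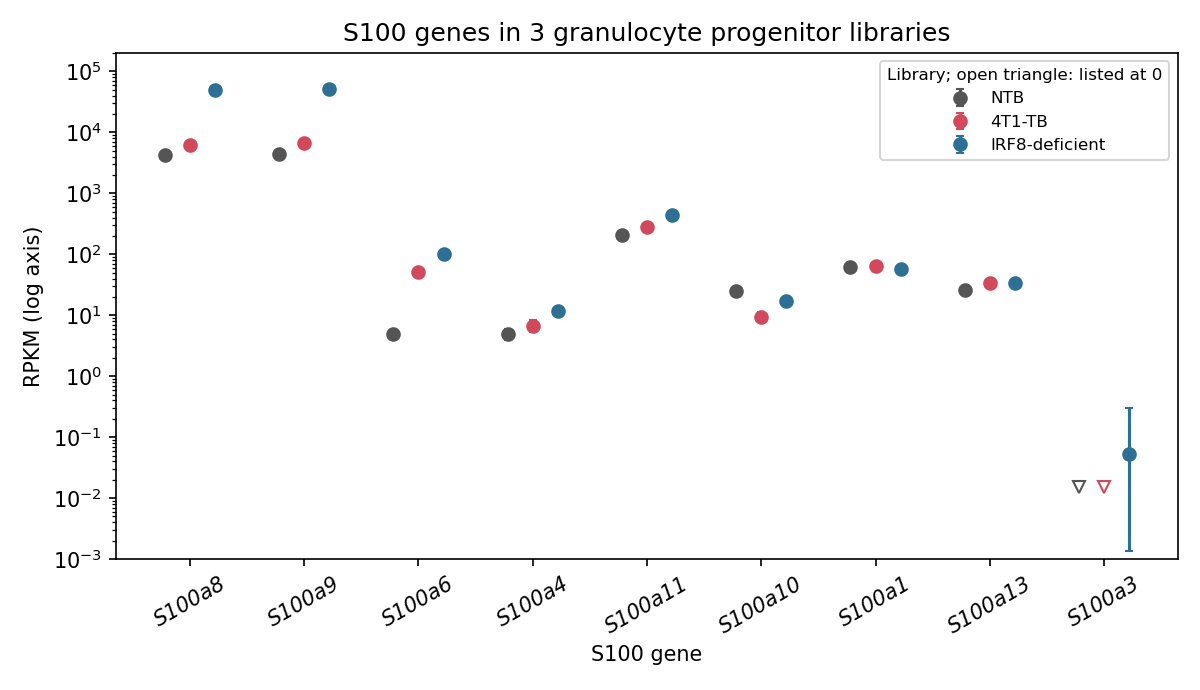
RPKM of the 9 S100 genes (log axis) in the NTB, 4T1-TB and IRF8-deficient libraries, 1 library per group, with 95% counting intervals that are mostly smaller than the points. Open triangles mark values listed at 0. S100a8 and S100a9 lie at 4255 or above in every library, S100a6 runs from 4.88 to 99.1, and S100a1 stays between 56.7 and 63.6.

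Differences were taken on the log2(RPKM + 1) scale, which understates those of low genes, and 10658 genes that reached an RPKM of 1 in some library were compared. A gene was called when it differed at least 2-fold on that scale. This left 8 S100 genes. Both comparisons with NTB share the NTB library. In bulk RNA, more cells of a type and more RNA per cell cannot be told apart.

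Against NTB, the 4T1-TB library held more S100a6 and less S100a10, and no other S100 gene was called. S100a6, or calcyclin, was 10.6-fold higher (interval 8.94 to 12.7; log2 difference 3.17). S100a10, the annexin A2 partner also called p11, was 2.64-fold lower (interval 2.19 to 3.19; log2 difference −1.31). The call was made in the higher direction for 1.67% of all compared genes and in the lower direction for 1.35%, 3.02% in all, and 1 of 8 members was called in each. Calprotectin RNA was modestly higher, at 1.47-fold for S100a8 (interval 1.45 to 1.49) and 1.49-fold for S100a9 (1.472 to 1.4996). Their log2 differences of 0.56 and 0.57 lie just above the middle 90% of compared genes, −0.58 to 0.54. With values scaled by summed reads they were 0.40 and 0.41. The median of the 8 members was 0.42, against 0.01 over all compared genes. Across all genes 178 were higher and 144 lower, or 145 and 180 when values were scaled by summed reads.

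The S100a6 difference was among the largest of the library pair. Of all compared genes 99.8% had a lower log2 difference than S100a6, and 0.488% a lower one than S100a10. S100a4, or metastasin, which lies near S100a6 with S100a5 between them, stood only 1.38-fold higher (interval 1.01 to 1.87). The ratio of S100a6 to S100a4 RPKM thus went from 1.01 in NTB to 7.75 in 4T1-TB. S100a11 was 1.36-fold higher (interval 1.30 to 1.42) and S100a13 1.29-fold (1.15 to 1.43). S100a1 had a ratio of 1.03 with an interval from 0.945 to 1.11. On its log2 scale S100a1 was 0.04 higher as deposited and −0.12 with values scaled by summed reads. Set against the median of all compared genes, S100a1 was 0.03 and 0.01 higher.

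Markers of later neutrophil stages and of monocytes also differed between these libraries. The 20 mature neutrophil markers summed to an RPKM of 388 in NTB and 798 in 4T1-TB, with 17 and 20 of them at 1 or more and none at 0 throughout. Of these 12 were called higher and none lower, where 1.67% and 1.35% of all compared genes were, with a median log2 difference of 1.56. Retnlg, which encodes a resistin-like protein of neutrophils, stood at 6.54 against 178. The 12 secondary granule genes, which mark an earlier step, did not stand higher as a sum, at 2279 and 2204. Their median log2 difference was 0.23, with 4 called higher (Cd177, Lcn2, Mmp8 and Mmp9) and 1 lower (Olfm4). Monocyte markers were lower in the same library: of 11 compared, Csf1r, Cx3cr1, Klf4, Ly86 and Ms4a6c were called lower and none higher, with a median of −0.81. Their part in the S100 differences was not tested.

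Against NTB, the IRF8-deficient library held more of 5 S100 genes, S100a6, S100a8, S100a9, S100a4 and S100a11. S100a8 was 11.6-fold higher (interval 11.5 to 11.6; log2 difference 3.53) and S100a9 11.7-fold (11.6 to 11.7; 3.54). S100a6 was 20.3-fold higher (17.3 to 24.1; 4.09). S100a4, which binds non-muscle myosin, was 2.40-fold higher (1.86 to 3.10; 1.11), and S100a11, an annexin A1 partner, 2.14-fold (2.06 to 2.22; 1.09). The higher call was made for 8.78% of all compared genes and the lower for 5.73%, 14.5% in all; of 8 members 5 were called higher and none lower. The median of the members was 1.10, against −0.02 over all compared genes.

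Scaling bears on this comparison. With values scaled by summed reads the median of all compared genes moved by −0.49, and the all-gene split of 936 higher and 611 lower became 436 and 1923. It was 728 and 866 without the 20 highest genes, and 550 and 1254 without Rn45s and the S100 genes. S100a6, S100a8 and S100a9 were called under each of these. Their log2 differences with summed reads were 3.54, 2.97 and 2.98, a shift that the counting intervals do not cover. Set against the median of all compared genes they were 4.12, 3.56 and 3.57 higher as deposited, and 4.05, 3.48 and 3.49 with summed reads. S100a4 came to 0.60 and S100a11 to 0.53 with summed reads, below the call. Set against the median of all compared genes, S100a4 was 1.13 higher as deposited and 1.11 higher with summed reads, and S100a11 1.12 and 1.04. S100a10 was 1.46-fold lower (interval 1.27 to 1.68; log2 difference −0.52), and it passed the call only with summed reads, at −1.04. S100a13 was 0.33 higher as deposited, −0.02 without Rn45s and the S100 genes, and −0.21 with summed reads. S100a1 was 0.13 lower as deposited, at a ratio of 0.914 (interval 0.842 to 0.991). Its log2 difference was −0.48 without Rn45s and the S100 genes and −0.68 with summed reads. Against the median of all compared genes S100a13 stood at 0.36 as deposited and 0.30 with summed reads. On the same footing S100a10 stood at −0.49 and −0.53, and S100a1 at −0.10 and −0.17.

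**Figure D2:**
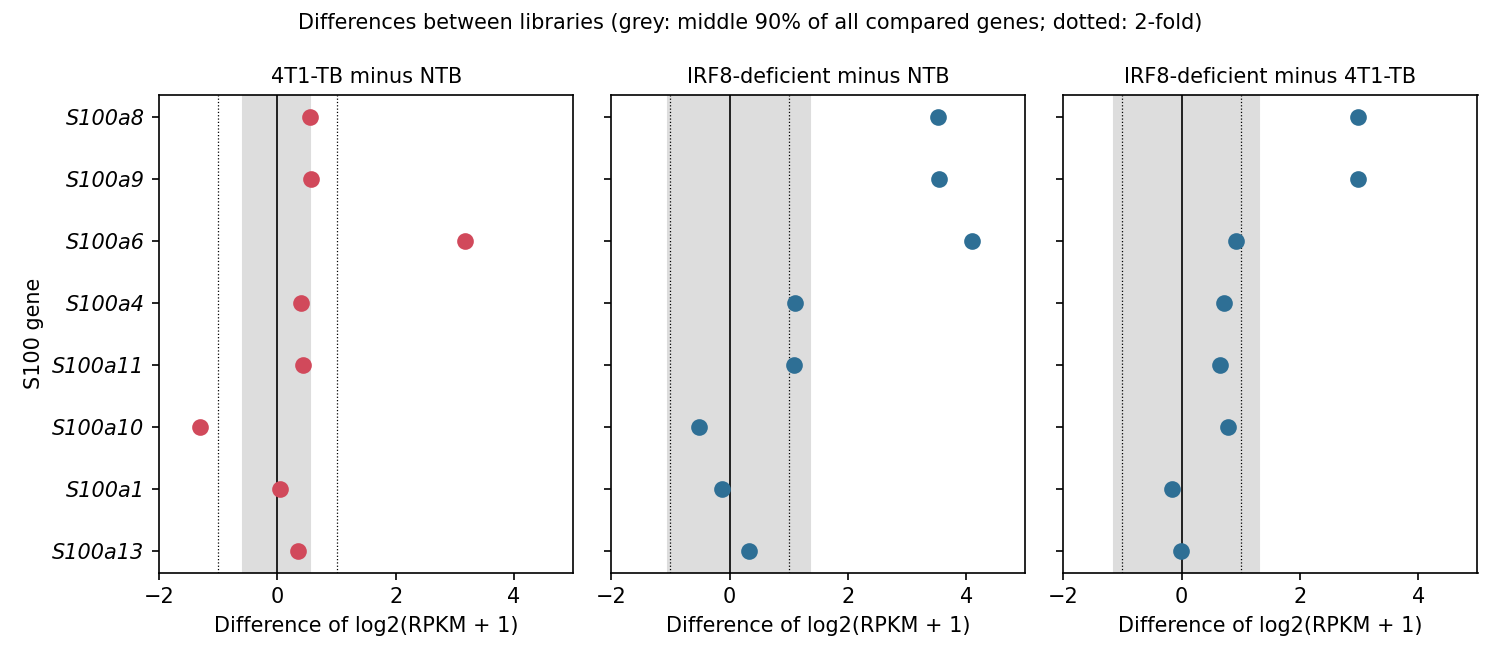
Differences of log2(RPKM + 1) for the 8 compared S100 genes between the libraries named above each panel. Grey marks the middle 90% of all compared genes and dotted lines the 2-fold call. S100a6 stands far to the right in both comparisons with NTB, at 3.17 and 4.09, S100a8 and S100a9 do so in both comparisons of IRF8-deficient, and S100a10 is the only member left of the lower call, at −1.31 in 4T1-TB.

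Granule genes were high in the same library. The 12 secondary granule genes summed to an RPKM of 56000.5 in IRF8-deficient against 2279 in NTB, all 12 were called higher, and their median log2 difference was 4.91. Ltf, the lactoferrin gene, stood at 75.2, 65.0 and 4856 in NTB, 4T1-TB and IRF8-deficient. The ratio of S100a8 to Ltf RPKM was 56.6, 96.2 and 10.1 in that order. Ltf had the largest log2 difference between IRF8-deficient and NTB of these 12 genes, 5.99. Hp (1.29) and Cybb (3.21) differed less than S100a8 (3.53), and the others differed more. The 20 mature neutrophil markers summed to 2418, with 16 called higher. The 15 monocyte markers summed to 1019, 629 and 1710 in NTB, 4T1-TB and IRF8-deficient, mostly Ly6c2 (739, 478 and 1350), with 11, 10 and 11 at an RPKM of 1 or more and none at 0 throughout. Of the 11 compared, 2 were called higher and 2 lower in IRF8-deficient against NTB, where 8.78% and 5.73% of all compared genes were. The 13 progenitor markers summed to 18268, 21457 and 11259. In IRF8-deficient against NTB Cebpe of these was called higher and Cd34 and Sox4 lower, with a median log2 difference of −0.76. With summed reads 1 was higher and 8 lower, where 4.09% and 18% of all compared genes were. Their part in the S100 differences was not tested.

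IRF8-deficient and 4T1-TB can also be compared directly, though strain differs between them too. S100a8 was 7.86-fold higher in IRF8-deficient (interval 7.80 to 7.93) and S100a9 7.85-fold (7.79 to 7.91), and no other S100 gene was called. Of all compared genes 8.83% were called higher and 7.07% lower, 15.9% in all, and 2 of 8 members were called higher and none lower. S100a6 was 1.92-fold higher (interval 1.76 to 2.08), S100a10 1.81-fold (1.47 to 2.23), S100a4 1.74-fold (1.31 to 2.32) and S100a11 1.57-fold (1.51 to 1.64). S100a13 had a ratio of 0.989 (0.880 to 1.11) and S100a1 of 0.891 (0.811 to 0.978). The median of the members was 0.75, against −0.00 over all compared genes. The split of 941 genes higher and 754 lower became 462 and 1528 with summed reads and 603 and 1123 without Rn45s and the S100 genes. S100a8 and S100a9 were called under both, and the signs of S100a6, S100a10, S100a4 and S100a11 were the same. The log2 differences of S100a8 and S100a9 were 2.98 and 2.97 as deposited, and 2.57 each with summed reads.

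The 2 calprotectin genes kept nearly the same ratio while their level differed. The S100a8 value divided by that of S100a9 gave 0.964 (interval 0.955 to 0.973) for NTB, 0.954 (0.943 to 0.964) for 4T1-TB and 0.955 (0.952 to 0.959) for IRF8-deficient. S100a10 and its partner Anxa2, the annexin A2 gene, did not keep theirs. Anxa2 had an RPKM of 43.1, 69.2 and 281 in NTB, 4T1-TB and IRF8-deficient, and the ratio of S100a10 to Anxa2 was 0.576, 0.136 and 0.0605. S100a10 to S100a11, its neighbor on the chromosome, was 0.119, 0.0332 and 0.0381.

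Position along the chromosome was set beside the differences. Of 20 genes flanking the S100 intervals, 5 on each side of each, 4 were high enough to compare, all on the S100a1 side. None was called in any comparison. The shares called among all compared genes were 3.02% in 4T1-TB and 14.5% in IRF8-deficient against NTB, and 15.9% between these 2 groups. With only 4 genes, a count of none is no contrast to those shares. Ints3, an Integrator subunit gene, had an RPKM of 19.7, 19.9 and 17.9, Ilf2 69.8, 77.1 and 71.0, Snapin 13.2, 15.3 and 13.4, and Chtop 32.9, 31.7 and 33.8. Their log2 differences ran from −0.05 to 0.20 in 4T1-TB and from −0.13 to 0.04 in IRF8-deficient. S100a1, which stands next to them, was at 0.04 and −0.13, within both ranges. S100a13, beside S100a1, was at 0.35 and 0.33, above both ranges, as were S100a4, S100a6, S100a8 and S100a9. S100a1 and S100a13 lie head to head on opposite strands and their RefSeq spans overlap by 98 bases (90514233 to 90514330). In GENCODE M21 the 2 gene spans do not overlap and lie 42 bases apart. The sources used here do not say whether reads were counted by strand. How reads from the stretch shared in RefSeq were counted is therefore not known. S100a11 has processed pseudogenes, among them Gm12854 on chromosome 4 at 98.99% identity over 297 bases. A transcript of Gm42674, also on chromosome 3, matches S100a4 at 100% identity over 302 bases. The S100a11 and S100a4 counts are therefore less certain.

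**Figure D3:**
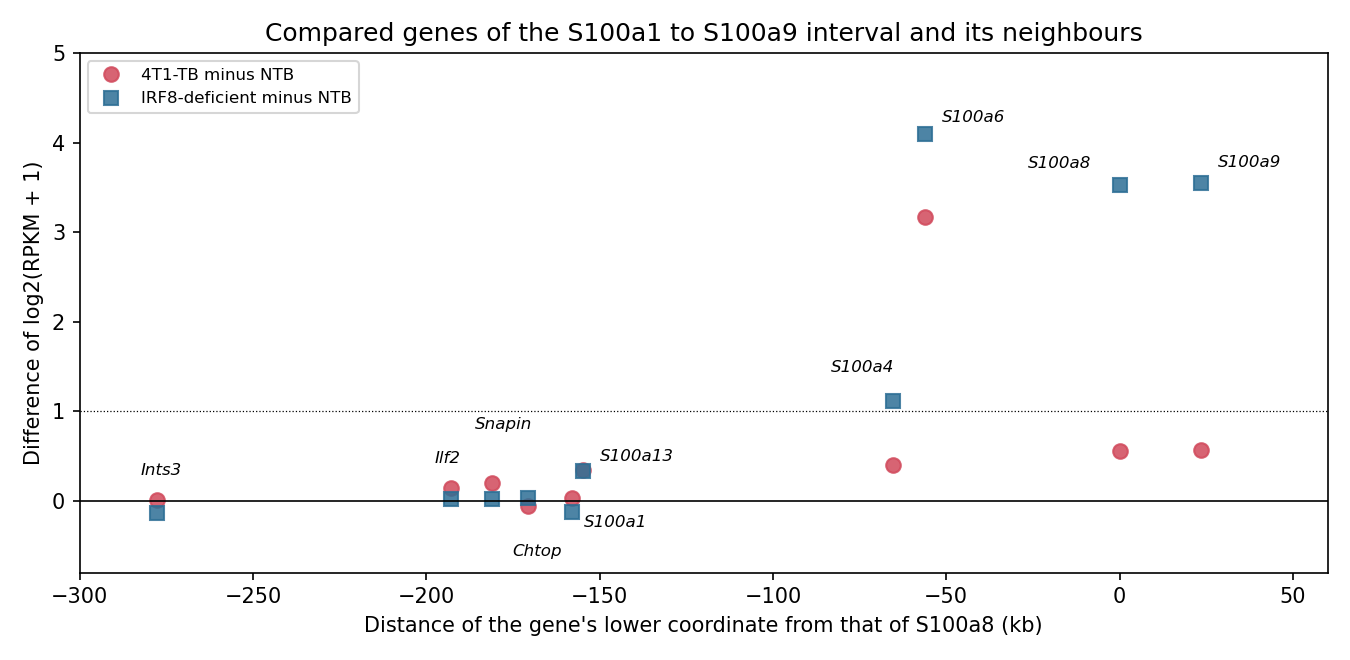
Log2 differences from NTB of the compared genes along the S100a1 to S100a9 interval, by distance from S100a8 in kb, for 4T1-TB (circles) and IRF8-deficient (squares). The 4 flanking genes and S100a1 lie near 0, S100a13 at 0.35 and 0.33, and S100a4, S100a6, S100a8 and S100a9 lie above 0 in both.

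Binding partners inside the cell form the next group. Of 16 compared partner genes, 1 was called higher and none lower in 4T1-TB, where 1.67% and 1.35% of all compared genes were. Their median log2 difference was 0.29. In IRF8-deficient against NTB 8 were called higher and none lower, or 4 and 3 with summed reads, and the median was 1.00. Of all compared genes 8.78% were higher and 5.73% lower, or 4.09% and 18% with summed reads. Anxa1, the annexin that S100A11 binds, was called in both, with an RPKM of 176, 479 and 1462 in NTB, 4T1-TB and IRF8-deficient. Anxa2 and Anxa11, the second an S100A6 partner, were called in IRF8-deficient, Anxa11 with 26.3, 39.1 and 84.5. Myh9, the non-muscle myosin heavy chain bound by S100A4, had 183, 211 and 524. Genes of the oxidase that calprotectin assists were also called there: Cybb had 58.8, 93.4 and 551.5, Cyba 159, 201 and 432, and Ncf1 177, 238 and 509.6. Cacybp, the calcyclin-binding protein gene, had 61.1, 72.8 and 32.9 and was called lower against 4T1-TB. In that comparison 7 partners were higher and 1 lower, or 3 and 2 with summed reads. The shares over all genes were 8.83% and 7.07%, or 4.33% and 14.3% with summed reads. Ncf1, Cyba and Myh9 were among those that lost the call against NTB with summed reads, and Cacybp, Atp2a2 and Trp53 were then called lower.

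Receptors for released S100 proteins and their signaling partners come next. Of 13 compared, 2 were called higher and none lower in 4T1-TB, where 1.67% and 1.35% of all genes were, and 2 higher and 1 lower in IRF8-deficient against NTB, where 8.78% and 5.73% were. Cd33, a sialic acid-binding receptor reported to bind S100A9, had an RPKM of 2.31, 9.56 and 45.3 in the same order and was called in every comparison. Myd88, the adaptor of Toll-like receptors, had 18.04, 40.4 and 36.7, Cd14, a co-receptor of Toll-like receptor 4, 4.68, 4.61 and 1.48, and Mcam 0.0463, 0.420 and 1.10. Emb, the embigin gene and the highest of the list by its mean, though below the basigin gene Bsg in 4T1-TB, had 98.0, 54.15 and 119, and Alcam 18.8, 9.32 and 21.4; both were called higher in IRF8-deficient against 4T1-TB, with Cd33, while Cd14 was lower. In that comparison 8.83% of all compared genes were called higher and 7.07% lower. With summed reads Cd33 was the only receptor called higher in any of the 3 comparisons. The best-known receptors, named here outside the naming rule, were not called: Tlr4 stood at 14.3, 21.3 and 16.7, and Ager, the RAGE gene, at 1.92, 1.54 and 2.80. The list median in IRF8-deficient against NTB was 0.28 as deposited and −0.28 with summed reads, where all genes had −0.51.

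Of 12 transcription factors known to act on S100 or neutrophil genes, none was called higher in 4T1-TB and Irf8 was called lower. The median was 0.30, and 1.67% of all compared genes were called higher and 1.35% lower. In IRF8-deficient against NTB 3 were called higher and Irf8 lower, where 8.78% and 5.73% of all compared genes were. The median was 0.39, or −0.13 with summed reads, against −0.02 and −0.51 over all genes. Cebpe, which drives secondary granule genes, had an RPKM of 77.4, 108 and 255, Cebpd 21.4, 26.3 and 47.3, and Klf5 2.04, 2.30 and 19.9. Cebpd lost its call with summed reads. Myb, a factor of early progenitors and the highest of the list by its mean, though below Cebpe in IRF8-deficient, had 300.2, 239 and 167. Against 4T1-TB, Cebpe and Klf5 were called higher and none lower, where 8.83% and 7.07% of all genes were. With summed reads Klf5 alone was higher and Gfi1 lower, where 4.33% and 14.3% of all genes were.

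Other EF-hand genes put the family beside calcium-binding genes at large. Of 23 compared none was called in 4T1-TB, where 1.67% of all compared genes were called higher and 1.35% lower. The list median there was 0.21. In IRF8-deficient against NTB 4 were called higher and none lower, where 8.78% and 5.73% of all compared genes were, and the median was 0.44. With summed reads none was higher and 2 were lower, where 4.09% and 18% of all genes were. The list median was then −0.12, and that of all genes −0.51. The 4 were the calpain genes Capn1 (31.996, 38.4 and 79.0) and Capns1 (65.4, 70.6 and 169.7), Gca, the grancalcin gene of neutrophils (31.8, 49.1 and 70.6), and the actin-bundling gene Lcp1 (192, 229 and 463). Calm2, a calmodulin gene and the highest of the list by its mean over the 3 libraries, though below Lcp1 in IRF8-deficient, had 297, 265 and 401. Against 4T1-TB 3 were called higher, Capn1, Capns1 and Lcp1, and Mcfd2 lower (37.7, 55.7 and 27.0). Of all compared genes 8.83% were called higher and 7.07% lower there. With summed reads none of the list was higher and 2 were lower, where 4.33% and 14.3% of all genes were.

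**Figure D4:**
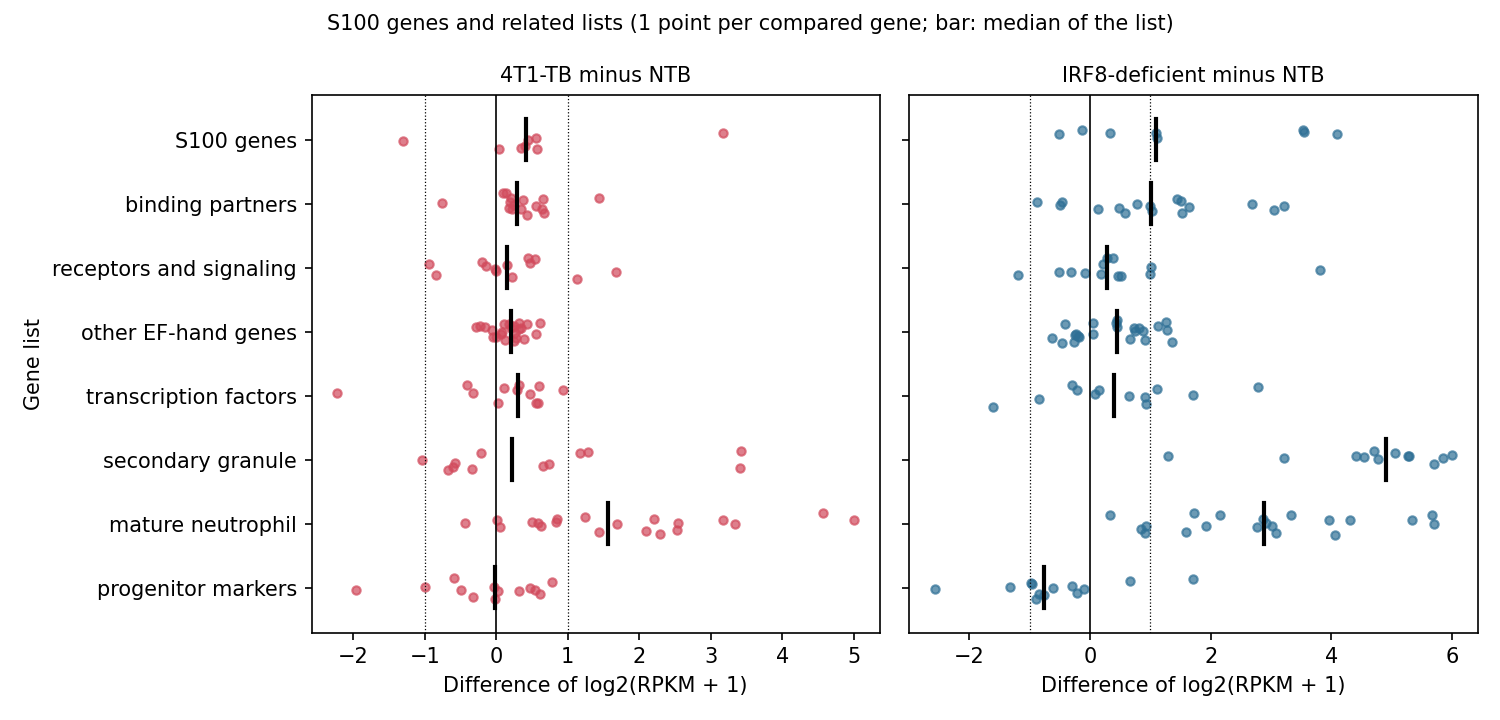
Log2 differences from NTB of the S100 genes and 7 related gene lists, 1 point per compared gene, with a bar at each list's median and dotted lines at the 2-fold call, for 4T1-TB (left) and IRF8-deficient (right). In 4T1-TB the S100 median is 0.42 with S100a6 far to the right, and the mature neutrophil median is 1.56. In IRF8-deficient the S100 median is 1.10, between those of partners (1.00) and mature neutrophil genes (2.89).

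The genes with values most like each member were sought among 8086 genes that reached an RPKM of 5 in some library, leaving out the S100 members and predicted, ribosomal protein, histone and small RNA genes by their symbols, by the distance between their 2 log2 differences from NTB. This covers 3 libraries and is a description only. S100a8 and S100a9 had the same 3 nearest genes, Lgals3, the galectin-3 gene (7.61, 11.2 and 89.6; distance 0.14 from S100a8), Trp53inp2 (0.596, 1.34 and 19.4) and Ipcef1 (0.810, 1.92 and 18.6), and only 4 genes lay within 0.25. S100a6 had none within 0.25. Nearest to it were Slfn1, a Schlafen gene (0.613, 8.75 and 22.8; distance 0.61), the metalloprotease gene Adam8 (0.458, 6.79 and 16.8; distance 0.89) and the formyl peptide receptor gene Fpr1 (0.422, 5.58 and 21.1; distance 0.96). Trp53inp2, Ipcef1, Slfn1, Adam8 and Fpr1 were below an RPKM of 1 in NTB, where the log2(RPKM + 1) scale understates differences. Their RPKM ratios to NTB were larger than those of the S100 genes they stand near. S100a10 was nearest to Haao (8.08, 2.94 and 5.51), Rassf4 (17.4, 7.16 and 11.7) and Ptprs (10.4, 3.41 and 6.23), with 6 genes within 0.25. The S100a4 values were closest to those of Furin, Msrb1 and Hcls1, with 123 genes within 0.25, and those of S100a11 to Agpat2, Furin and Trem3, with 104. S100a13 was nearest to Ndufb7, Tom1 and C1galt1 and had 582 within 0.25, and S100a1 to Atmin, Alg11 and Prpf6, with 1575.

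Of the 8 other S100 symbols, S100a2, S100a16, S100b, S100g and S100z were listed at 0 in every library. S100a5 had an RPKM of 0.0517 in NTB, from 1 read, and S100a7a and S100a14 were above 0 in IRF8-deficient alone, at 0.207 and 0.0699. The wider list of 14 S100 and S100-fused genes had Tchh, the trichohyalin gene, as its highest member, at 0.391, 0.186 and 0.730. S100a2, S100a5, S100a7a, S100a14 and S100a16 lie within the S100a1 to S100a9 interval on chromosome 3, and each stayed below an RPKM of 1 in every library.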

How the data were processed

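RNA from granulocyte progenitors was measured in 3 libraries, 1 each for NTB, 4T1-TB and IRF8-deficient mice, grouped by the labelled mouse model. The deposited values are RPKM per gene symbol made by the authors, without a header. Per the submitters' processing notes, the tools were TopHat2 2.0.13 with mm10, HTSeq 0.6.1, edgeR 3.12.1, CASAVA 1.8.2, Picard 1.97 and cutadapt 1.2.1; the sources used here give neither their settings nor whether counting used strand. RPKM compares genes per length, but its scale depends on the total it was divided by, and a few very high genes or ribosomal RNA can shift it.

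Whole reads were recovered from the ratios of RPKM values between libraries for 99.9% of the 15158 genes above 0, and 96.3% of 14543 gene lengths implied by them were within 1.25 times of an annotated transcript length. A factor common to all libraries had to be chosen from that length for 19.8% of genes, S100a8 among them. The values had been divided by library sizes of 44790400, 22207700 and 26112000 (NTB, 4T1-TB, IRF8-deficient), against summed reads of 40995633, 22685574 and 35297156. Scaling by summed reads keeps Rn45s and the highest genes in the total. Differences used log2(RPKM + 1) over genes with an RPKM of 1 or more in at least 1 library and a 2-fold call, with Python 3.11.15, numpy 2.4.6, scipy 1.17.1 and pandas 2.3.3. The recovery of reads and the 2-fold call were also run on simulated libraries. There the differences were first centered on their median, which was not done for the calls reported here. No shift from a few very high genes was simulated, so that run does not bear on the scaling. With 1 library per group no test across samples could be run.

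The S100 members and the gene lists were chosen with earlier results of these data known. The text names all members, every gene of the S100, receptor, partner, transcription factor and EF-hand lists that differed at least 2-fold in 1 or more comparisons, the gene of each of those lists with the highest mean RPKM, and the 3 genes nearest in pattern to each member. A gene that the rule names is not reported here. Genes named beyond that were chosen after their values were seen. Alternatives covered the pseudocount, the filter, the scaling and the size of the call. Coordinates are from GENCODE M21 and promoter windows from RefSeq; S100a10 has no window in that table.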

Additional observations from a re-analysis of the deposited data

How the results depend on the processing

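Every difference rests on 1 library per group, so its biological spread is unknown, and the counting intervals are widest for S100a4 (74 reads in 4T1-TB) and S100a10 (136 reads). No paired analysis was possible because each group has 1 library. Of 54 recomputed counts of called members 48 were within 1.5 times of the value reported. Those with no filter and with the filter at an RPKM of 5 could not differ from it. All 8 compared members reached 5 in some library, and S100a3 was too low to be called. In IRF8-deficient against NTB the members called higher were 3 rather than 5, S100a6, S100a8 and S100a9, without the 20 highest genes, without Rn45s and the S100 genes, with summed reads and at a 4-fold call, and 1 member, S100a10, was called lower with summed reads rather than 0. In 4T1-TB against NTB no member was called lower at a 4-fold call, 0 rather than 1. Of 144 recomputed single differences 93 stayed within their counting interval, 51 moved, 8 changed their call and 0 of the called ones turned sign. S100a4 in IRF8-deficient against NTB was 0.75 with a pseudocount of 5, 0.96 without the 20 highest genes, 0.78 without Rn45s and the S100 genes and 0.60 with summed reads, and S100a11 was 0.93, 0.73 and 0.53 in the last 3. The shift of the median of all compared genes was −0.14 with summed reads in 4T1-TB against NTB, −0.49 in IRF8-deficient against NTB and −0.34 between these 2 groups. Over all genes the higher and lower counts for 4T1-TB against NTB, IRF8-deficient against NTB and IRF8-deficient against 4T1-TB were 47 and 5, 203 and 41, and 178 and 50 at a 4-fold call; 282 and 354, 1145 and 1071, and 1235 and 1084 with a pseudocount of 0.1; and 65 and 21, 526 and 149, and 475 and 311 with a pseudocount of 5. The filter at an RPKM of 5 gave 115 and 74, 792 and 431, and 783 and 606.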
